A study of Mus musculus with 2 samples.

Results

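MicroRNA and small nucleolar RNA (snoRNA) transcripts were examined in the messenger RNA profile of unstimulated mouse bone marrow-derived macrophages, cells that arise in culture from precursors of the marrow. The members were the rows of the deposited table whose symbol starts with Mir followed by a digit or by let, with Snhg or with Snor, together with Gas5. This rule took 162 of 16463 genes, and it used the names alone. By type they were 6 microRNA host genes, 16 snoRNA host genes (15 Snhg genes and Gas5), 96 microRNA precursor rows and 44 snoRNA rows. The TKO library came from mice with mir-106a~363-/- and mir-106b~25-/- alleles, the allele mir-17~92 flox/flox and the driver Lyz2-Cre, and the WT library from mice carrying Lyz2-Cre, all of the strain C57BL/6J. Lyz2-Cre, which both genotypes carry, is a recombinase expressed from the lysozyme M gene in myeloid cells, so mir-17~92 depends on Cre activity in the cultured cells while the labels give the other clusters as deleted without it. The culture lasted 5 days in medium with 10% serum and 10% of medium conditioned by L929, a mouse fibroblast line that supplies macrophage colony-stimulating factor. Neither the age of the mice nor the number pooled is known from the labels. Each genotype had 1 library, so nothing below has a replicate check and no test was run.

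MicroRNAs are cut from long primary transcripts, first by Drosha with Dgcr8 in the nucleus and then by Dicer, and the mature strand guides an Argonaute protein to messenger RNAs that match its seed. In macrophages, microRNAs of the mir-17~92 cluster and its paralogs are known as regulators of differentiation and inflammatory signalling. SnoRNAs guide chemical changes of ribosomal RNA: the box C/D class directs ribose methylation with fibrillarin, and the box H/ACA class directs pseudouridine formation with dyskerin. Most mammalian snoRNAs are trimmed out of introns, either of protein-coding genes or of snoRNA host genes, whose spliced RNA often codes for no known protein and is commonly destroyed by nonsense-mediated decay. RNA was enriched for polyadenylated molecules here. Mature microRNAs and mature snoRNAs carry no poly(A) tail, so the counts describe host transcripts and whatever polyadenylated RNA overlaps the small genes, and mature small RNAs were not measured.

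The mature sequences of the clusters that the genotype labels give as deleted or floxed are shown, and they fall into 4 seed families. Their loss in the TKO cells was not measured here. Capitals mark the seed, bases 2 to 8. They are credited to RefSeq on GRCm38.p6. The 3 clusters hold 15 precursor genes and give 13 distinct main strands, since miR-19b-3p and miR-92a-3p are each made from a pair of genes.
miR-17-5p: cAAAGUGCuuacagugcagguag
miR-20a-5p: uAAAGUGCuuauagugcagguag
miR-106b-5p: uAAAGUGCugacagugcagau
miR-93-5p: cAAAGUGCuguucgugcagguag
miR-106a-5p: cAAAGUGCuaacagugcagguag
miR-20b-5p: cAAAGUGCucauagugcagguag
miR-18a-5p: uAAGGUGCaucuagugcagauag
miR-18b-5p: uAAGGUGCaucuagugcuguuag
miR-19a-3p: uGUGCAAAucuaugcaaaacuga
miR-19b-3p: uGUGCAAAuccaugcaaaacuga
miR-92a-3p: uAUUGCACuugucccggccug
miR-25-3p: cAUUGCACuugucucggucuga
miR-363-3p: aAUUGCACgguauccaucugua
The seed AAAGUGC is carried by members of all 3 clusters, as is AUUGCAC. The seeds AAGGUGC and GUGCAAA occur in the mir-17~92 and mir-106a~363 clusters only, among these sequences. On chromosome 14, miR-17-5p lies at chr14:115043684-115043706 on the plus strand. On chromosome 5, miR-25-3p lies at chr5:138165332-138165353 on the minus strand, within the gene Mcm7. On chromosome X, miR-106a-5p lies at chrX:52742541-52742563 on the minus strand.

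The libraries held 10656455 estimated counts in TKO and 10877915 in WT, which TMM factors of 0.988 for TKO and 1.01 for WT adjusted. The members made up 0.0141% of the counts in TKO and 0.0128% in WT. Macrophage markers were abundant in sum in both libraries, with 136550 counts in TKO and 138009 in WT over 12 genes. All were detected, and none passed the size rule defined below (median log2 ratio 0.033). Single markers differed widely: Mpeg1 had 42948 counts in TKO and 39105 in WT, while Lyz2 had the fewest, with 397 in TKO and 373 in WT. Fibroblast and stroma markers were fewer in TKO, where 13 genes summed to 2113 counts, against 7066 in WT. Of the 12 past the count minimum 8 were lower in TKO (median log2 ratio -1.68), and Col1a1, a collagen gene, had 693 counts in TKO and 2871 in WT. Dendritic cell markers summed to 1357 counts in TKO and 572 in WT, and 4 of the 5 past the minimum were higher in TKO (median 1.37), among them Itgax, the integrin CD11c, with 843 counts in TKO and 342 in WT. Neutrophil markers had 1 higher and 1 lower of 3 past the minimum (sums 188 in TKO and 202 in WT, median -0.078). B cell markers had 1 lower of 2 (sums 33 in TKO and 51 in WT, median -0.85), and T and NK cell markers had 1 lower of 2 (sums 2206 in TKO and 2192 in WT, median -0.60). Nearly all of the T and NK sums came from Il7r, with 2145 counts in TKO and 2102 in WT. Cd4, the gene called lower, had 25 in TKO and 64 in WT. No fibroblast, dendritic cell or macrophage marker was at 0 in either library. The part of these markers' differences in the values below was not tested, and in such bulk samples fewer cells of a type and less RNA per cell cannot be told apart.

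Few of the members were measured well enough to compare. A gene was compared where 1 library had at least 20 counts, and it was called higher or lower where the log2 ratio of TKO over WT was at least 1 in size and its exact 95% counting interval excluded 0. Of the 162 members 15 reached the count minimum: 12 snoRNA host genes, 2 microRNA host genes and 1 precursor row. The other 147 did not, and 95 of the members had at most 2 counts in both libraries. Mir17hg was the 1 member called higher in TKO, where 2.43% of all 11525 genes past the minimum were called higher. Mir8114 was the 1 member called lower, where 2.3% of all genes were called lower. With 15 members past the minimum, a single call cannot be read as a larger or smaller share than that of all genes. The interval excluded 0 for 3 of the 15 (Mir17hg, Gas5 and Mir8114), and for 5138 of the 11525 genes. Intervals of ratios cover counting error only and hold no spread between cultures. Without molecular identifiers the reads are not counts of independent molecules, so these intervals may be too narrow even for counting error. Intervals of medians come from order statistics over the genes, which are not replicates of a genotype.

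**Figure D1:**
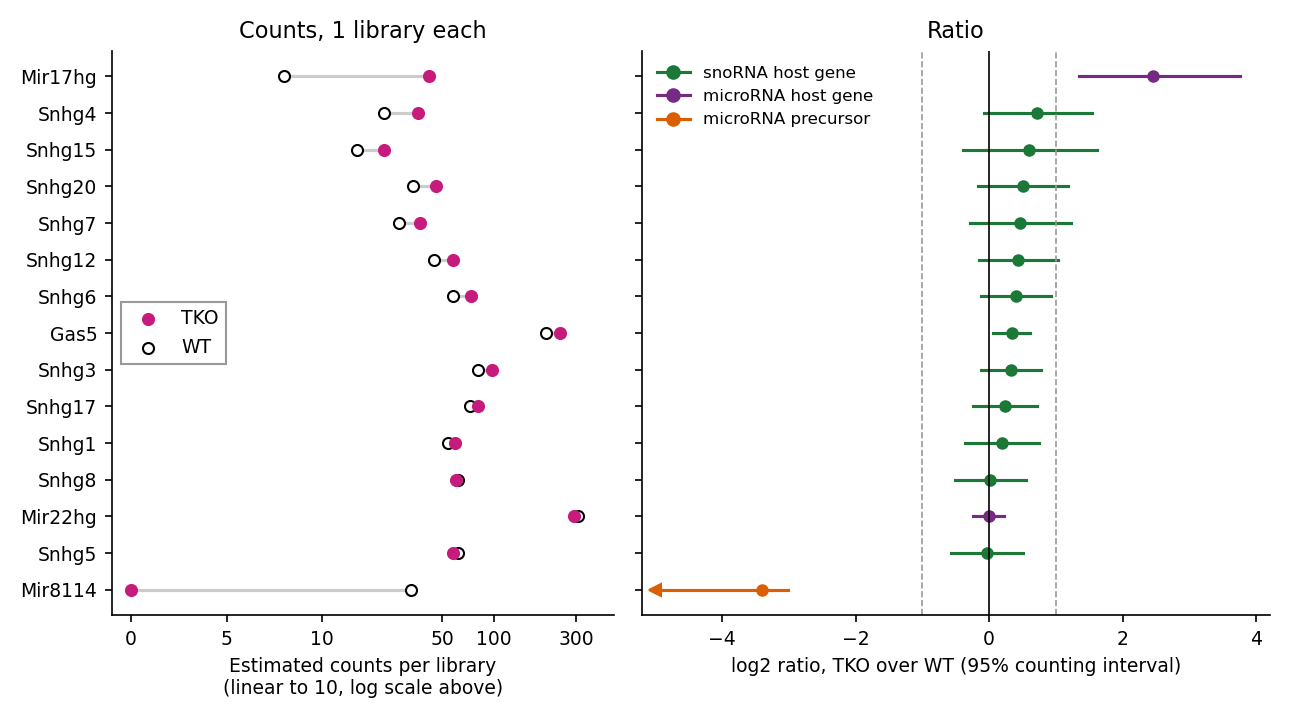
Estimated counts of the 15 members past the count minimum (left, x axis linear to 10 and logarithmic above) in the TKO library (filled) and the WT library (open), and the log2 ratio of TKO over WT with its 95% counting interval (right, dashed lines at a log2 ratio of 1 and -1). Mir17hg sits right of the upper line at 2.46, the Mir8114 point is the bound of -3.39 with an arrow for its open interval, and the 12 snoRNA host genes lie between -0.03 and 0.71.

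Mir17hg, the noncoding host gene of the mir-17~92 cluster, was the microRNA host gene that differed. It had 42 counts (1.68 FPKM) in TKO and 8 counts (0.31 FPKM) in WT. That is 5.49-fold higher in TKO (2.55 to 13.5), a log2 ratio of 2.46 (1.35 to 3.76), on counts that are low in both libraries. The value is not a check of the genotype label. The deposited table gives Mir17hg a length of 2339 bases, which is the length of the RefSeq gene at chr14:115044390-115046728 on the plus strand. Within those bases lie the whole of the last hairpin, Mir92-1, and 2 bases of Mir19b-1, while the hairpins Mir17, Mir18, Mir19a and Mir20a lie before its start. In the GENCODE M21 annotation the gene starts further upstream, at chr14:115042879-115046727, with 2 exons that cover 3536 bases and all 6 hairpins. The annotation that the authors counted on and the ends of the floxed segment are given in none of the sources used here. A count over the shorter gene rests mostly on bases after the hairpins and says nothing of whether the hairpins were present.

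**Figure D2:**
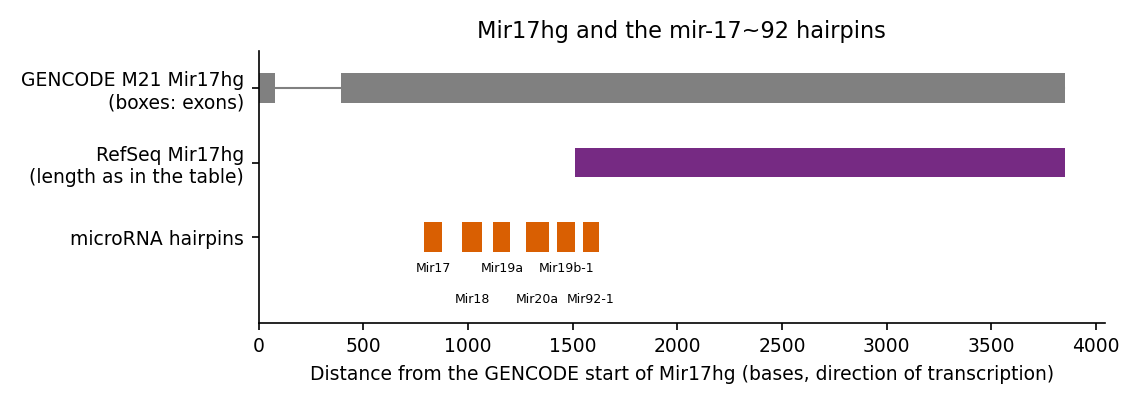
Map of the Mir17hg gene to scale, with distance from its GENCODE M21 start in bases along the direction of transcription (x axis), the 2 GENCODE exons (grey), the RefSeq gene of 2339 bases (purple) and the 6 hairpins of mir-17~92 (orange). The RefSeq gene begins after 4 of the hairpins, overlaps Mir19b-1 by 2 bases and holds Mir92-1 whole.

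Rows of the targeted clusters themselves were almost empty. Of the 15 precursor genes of the 3 clusters, 2 have a row in the table. Mir17 had 0 counts in TKO and 1 in WT, and Mir25 had 0 counts in TKO and 1 in WT. A count of 0 allows up to 3 counts, so no difference was detectable at this depth in either row. Mcm7, a DNA replication helicase gene that holds the mir-106b~25 cluster, had 1083 counts in TKO and 1228 in WT, a log2 ratio of -0.12 for the whole gene.

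Mir22hg, the host gene of miR-22, was at the same level in both libraries within counting error. It lies at chr11:75461539-75466690 on the plus strand and overlaps Tlcd2. It had the most counts of any member, with 293 in TKO and 308 in WT, a log2 ratio of -0.0065 (-0.24 to 0.23). Per length its level was 15.62 FPKM in TKO and 16.10 FPKM in WT. The sequence that this transcript gives rise to has a seed that none of the targeted clusters carries.
miR-22-3p: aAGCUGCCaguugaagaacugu
The other 4 microRNA host genes stayed under the count minimum. Mir99ahg, the host of miR-99a, had 7 counts in TKO and 11 in WT. Mir155hg, which gives rise to miR-155, a microRNA induced in activated macrophages, had 0 counts in TKO and 2 in WT. Mir124a-1hg, a host of the neuronal miR-124, had 2 counts in TKO and 3 in WT, and Mir143hg, the host of miR-143, had 1 in TKO and 2 in WT. Each of these 4 had fewer counts in TKO, by at most 4, and none was compared. The 6 host genes together had 345 counts in TKO and 334 in WT, a log2 ratio of 0.11 (-0.11 to 0.33), of which Mir22hg made up most.

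The snoRNA host genes were slightly higher in TKO as a group, and none passed the size rule. Summed over the 16 genes there were 891 counts in TKO and 764 in WT, 1.22-fold more (1.11 to 1.35) or a log2 ratio of 0.29 (0.15 to 0.43). Among the 12 past the minimum 11 lay above 0, and their median log2 ratio was 0.37 (0.19 to 0.50 by order statistics over the genes). All 11525 genes had a median of 0.0042, with 50.6% above 0. The 4269 genes in the same range of counts, 23 to 243 in the better covered library, had a median of 0.029, and the middle part of that distribution, between its quartiles, ran from -0.25 to 0.28. Leaving out Gas5, the snoRNA host gene with the most counts, the sum was 648 in TKO and 563 in WT, a log2 ratio of 0.27 (0.10 to 0.43).

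Gas5, a growth-arrest transcript that hosts box C/D snoRNAs and accumulates when translation is inhibited, was the snoRNA host gene whose own 95% interval excluded 0. It lies at chr1:161034601-161038539 on the plus strand, holds 9 annotated small RNA genes and overlaps Zbtb37. It had 243 counts (8.90 FPKM) in TKO and 201 counts (7.22 FPKM) in WT, 1.27-fold more (log2 ratio 0.34, 0.064 to 0.62). Its 99% interval, -0.021 to 0.70, includes 0. Per length, Snhg3, Snhg6 and Snhg1 (12.38 FPKM in TKO and 11.11 FPKM in WT) were higher than Gas5 in both libraries. Snhg3, which hosts a pair of box H/ACA snoRNAs and overlaps Rcc1, lies at chr4:132351933-132353686 on the minus strand. It had 97 counts (22.33 FPKM) in TKO and 81 counts (18.29 FPKM) in WT, a log2 ratio of 0.33 (-0.12 to 0.77). Snhg6, the host of Snord87, lies at chr1:9942025-9944118 on the minus strand and overlaps Mcmdc2. It had 73 counts (18.16 FPKM) in TKO and 58 counts (14.15 FPKM) in WT, a log2 ratio of 0.40 (-0.12 to 0.92).

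The largest ratios in the group belonged to genes with few counts. Snhg4 had 36 counts in TKO and 23 in WT, a log2 ratio of 0.71 (-0.082 to 1.53). Snhg15, the host of Snora9, had 23 counts in TKO and 16 in WT, a log2 ratio of 0.59 (-0.39 to 1.61). Snhg20 had 46 counts in TKO and 34 in WT, a log2 ratio of 0.50 (-0.17 to 1.19). Each of these intervals includes 0, so none of the 3 can be told from no difference by counting error alone. Snhg7 had 37 counts in TKO and 28 in WT (log2 ratio 0.47), Snhg12 had 58 in TKO and 45 in WT (0.43), and Snhg17 had 81 in TKO and 72 in WT (0.24). Snhg1, which holds 8 small RNA genes, had 59 counts in TKO and 54 in WT, a log2 ratio of 0.19 (-0.36 to 0.75). Snhg5, the host of Snord50a and Snord50b, had 58 counts in TKO and 62 in WT, a log2 ratio of -0.031. Snhg8, the host of Snora24, had 60 counts in TKO and 62 in WT, and its log2 ratio of 0.018 turned to -0.018 when library totals were used for scaling. The 4 snoRNA host genes under the minimum were Snhg11 with 11 counts in TKO and 17 in WT, Snhg10 with 5 in TKO and 8 in WT, Snhg18 with 4 in TKO and 2 in WT, and Snhg14 with 0 in TKO and 1 in WT. The excess in TKO was thus spread over many of the genes past the minimum, while those under it went both ways.

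The excess moved with gene length. Over all genes the log2 ratio varied with length. At the lengths of the 12 snoRNA host genes past the minimum the lowess trend stood at a median of 0.24, against 0.021 over all genes. Its lowest value among the 12 was 0.0041 and its highest 0.30, which is a range and not an interval. With that trend removed, the summed log2 ratio was 0.12 (-0.016 to 0.27), an interval that includes 0, and the median of the 12 genes was 0.20. Snhg1 then had a log2 ratio of -0.090 and Snhg8 one of -0.20. Mir17hg and Mir8114 were called with and without the trend.

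The start sites of some snoRNA host genes are shown because genes of the translation machinery, and several snoRNA host genes, are known for transcripts that begin with a C followed by a run of pyrimidines (a terminal oligopyrimidine tract), which ties their translation to growth signals. The run searched for was a C followed by at least 4 further C or T bases, on the transcript strand only, starting within 5 bases of the annotated start. Of the 16 snoRNA host genes 14 matched a promoter entry of RefSeq (GRCm38.p6), and 7 of the 14, or 50%, held such a run, against 21.2% of 27025 genes. Each window below covers 30 bases before and 30 from the annotated start, with the run in capitals. Gas5 has a pair of annotated starts in RefSeq, and the window shown is at the downstream one, which holds the run.
Gas5: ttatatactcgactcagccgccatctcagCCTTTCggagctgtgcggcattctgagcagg
Snhg12: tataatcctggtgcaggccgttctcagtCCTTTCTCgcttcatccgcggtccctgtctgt
Snhg7: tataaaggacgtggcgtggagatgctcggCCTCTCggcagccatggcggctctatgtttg
Snhg8: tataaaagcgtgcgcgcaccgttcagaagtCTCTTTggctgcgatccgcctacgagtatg
Snhg3: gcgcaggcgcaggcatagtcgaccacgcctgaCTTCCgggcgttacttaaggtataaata
The windows are chr1:161035136-161035195 on the plus strand for Gas5, chr4:132308648-132308707 on the plus strand for Snhg12 and chr2:26640215-26640274 on the minus strand for Snhg7. Those of Snhg8 and Snhg3 are chr3:123508307-123508366 and chr4:132353657-132353716, both on the minus strand. Snhg10 and Snhg18 held a run as well. Genes with the run and genes without it were found on both sides of the group's range: Gas5 and Snhg12 have it at log2 ratios of 0.34 and 0.43, Snhg8 has it at 0.018, and Snhg20 and Snhg15 lack it at 0.50 and 0.59. A match of letters at an annotated start is a description and does not show where transcription began in these cells.

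The 96 microRNA precursor rows were sparse in both libraries. They span 54 to 139 bases each, with a median of 86. Together they had 187 counts in TKO and 220 in WT, a log2 ratio of -0.17 (-0.46 to 0.12). With the length trend removed this was -0.65 (-0.94 to -0.36). The trend was fitted to genes past the count minimum, which among these rows is Mir8114 alone. It stood at 0.48 at the length of Mir8114, and rows shorter than the shortest gene fitted took the value at the end of the fit. Of the 96 rows 63 had at most 2 counts in both libraries. Rows with 0 counts in TKO alone numbered 33 and rows with 0 in WT alone 28, while 30 had counts in both libraries. Among all 162 members 56.8% were at 0 in exactly 1 library, against 10.5% of all genes.

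**Figure D3:**
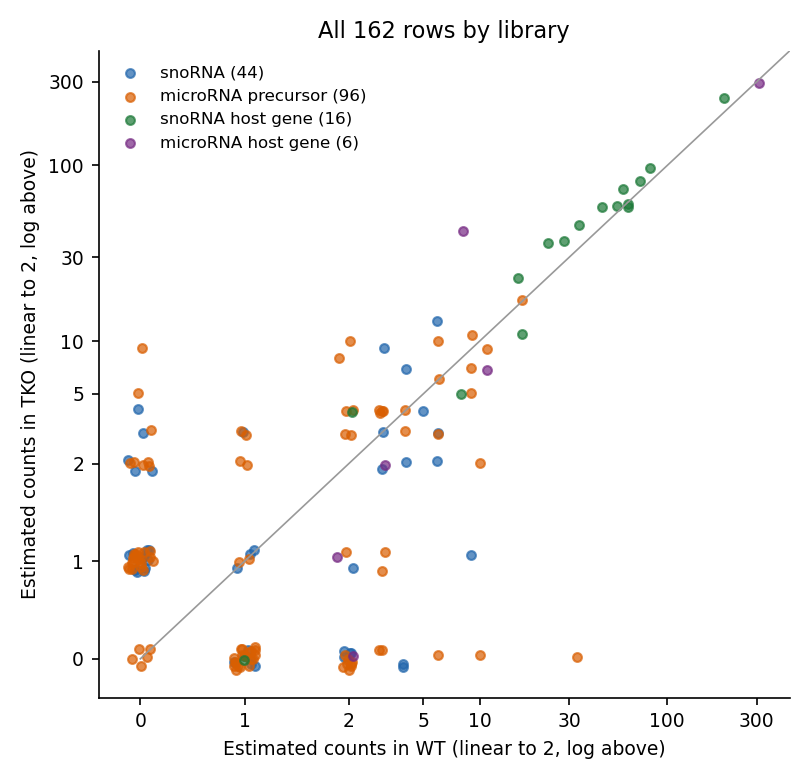
Estimated counts of all 162 members in TKO (y axis) against WT (x axis), both linear to 2 and logarithmic above, with a small random offset to separate points and the line of equal counts in grey. Host genes (green and purple) fill the upper part near the line, apart from Mir17hg at 42 counts in TKO and 8 in WT, and the precursor and snoRNA rows crowd at 0 to 2 counts.

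Mir8114 was the precursor row past the count minimum. It had 0 counts in TKO and 33 in WT (0.01 FPKM, the value listed for a count of 0, in TKO and 40.02 FPKM in WT). With the 0 set to 3 counts, the number that an observed 0 allows in 1 library, it was at least 10.5-fold lower in TKO. That bound leaves out the counting error of the 33, and the upper end of the 95% counting interval is a log2 ratio of -3.01. The row lies at chr1:153899926-153900036 on the plus strand, within an exon of Glul, the glutamine synthetase gene, on the same strand. Glul had 2548 counts in TKO and 3740 in WT, a log2 ratio of -0.49 (-0.56 to -0.42). Reads over these bases belong to both genes, so the division of counts between Mir8114 and Glul is uncertain. Without Mir8114 the precursor rows had 187 counts in TKO and 187 in WT, a log2 ratio of 0.066 (-0.23 to 0.37). Before removal of the length trend, the negative sign of the sum thus rested on this row. The sum without Mir8114 was not computed with that trend removed.

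Short rows also take a high FPKM from few counts. In the deposited table the lengths implied by counts and FPKM were shorter than the listed lengths by 36.0 bases in TKO and 40.0 bases in WT. For the precursor and snoRNA rows with at least 5 counts (14 in TKO and 17 in WT), the median implied length was 70.0 bases in TKO, against 106.5 listed, and 74.4 bases in WT, against 111 listed. Mir8114 with 33 counts in WT thus stands at 40.02 FPKM, above Mir22hg with 308 counts and 16.10 FPKM. The authors' deposited table gives 5 members an FDR of at most 0.05 and an absolute log2 ratio of at least 1, of 624 such genes in all. In the authors' deposited table these log2 ratios are -11.97 for Mir8114, -10.28 for Mir686, -3.13 for Snora17, 2.44 for Mir17hg and 10.00 for Mir546. Counts behind 3 of them are low: Mir686 had 0 counts in TKO and 10 in WT, Snora17 had 1 in TKO and 9 in WT, and Mir546 had 9 in TKO and 0 in WT. These 3 rows are named after their values were seen. An absolute log2 ratio over 8 is found for 62 genes in the authors' deposited table, and 46 of them are members, every one with 0 counts in 1 library and 34 with at most 2 counts in the other. Such ratios are set by the listed value of 0.01 FPKM.

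Most precursor rows overlapped other genes of GENCODE M21. A row was placed in an exon where it touched an exon of any annotated transcript of another gene, even if other transcripts have an intron there. Of the 96 rows, 51 lie in an exon of another gene on the same strand, 10 in an exon on the opposite strand, 20 in an intron on the same strand, 8 in an intron on the opposite strand and 6 in no other gene, while 1 could not be placed. Of the exonic rows on the same strand 38 lie in coding or untranslated sequence of a protein-coding gene. The rows in exons on the same strand summed to 81 counts in TKO and 114 in WT, and Mir8114 made up 33 of those in WT. No source used here says whether the counting used strand, so reads of a row and of a gene on the opposite strand cannot be told apart. Among rows under the minimum, Mir703 had the most counts with 17 in TKO and 17 in WT, and lies in an intron of Cfap299 on the opposite strand. Mir703 is named after its values were seen.

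**Figure D4:**
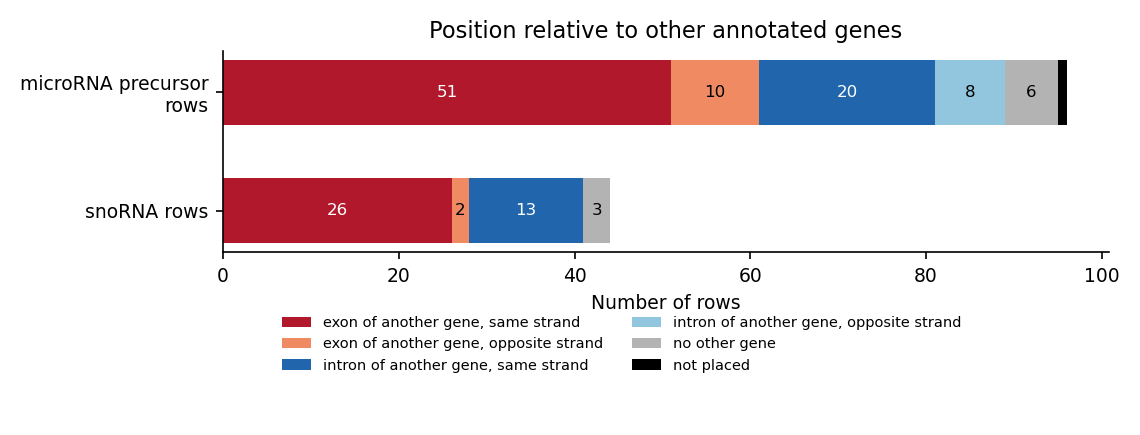
Number of microRNA precursor rows (top, 96) and snoRNA rows (bottom, 44) by their place relative to other annotated genes, with the x axis counting rows. Exons of another gene on the same strand, in any annotated transcript, hold 51 precursor rows and 26 snoRNA rows, the largest class for both among the classes drawn. Of these, 38 precursor rows and 2 snoRNA rows lie in coding or untranslated sequence.

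The genes around the precursor rows differed little between the libraries. On the same strand 65 rows had 64 surrounding genes in the table, 33 of which had over 1000 counts in 1 library. The 60 past the minimum had a median log2 ratio of -0.025, 26 lay above 0 and 0 passed the size rule. Summed, these genes had 104935 counts in TKO and 107358 in WT, a log2 ratio of 0.033 (0.020 to 0.045). With the counts of both libraries added together, the small row came to under 1% of its surrounding gene for 57 of the 65.

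The 44 snoRNA rows were equally sparse, with no clear difference in sum. They had 78 counts in TKO and 77 in WT, a log2 ratio of 0.084 (-0.39 to 0.56), and none reached the count minimum. At most 2 counts in both libraries were found for 29 rows. There were 12 rows at 0 in TKO alone and 17 at 0 in WT alone. The rows span 56 to 221 bases, with a median of 106. Exons of another gene on the same strand held 26 of them, with 63 counts in TKO and 49 in WT. Introns on the same strand held 13, exons on the opposite strand 2, and 3 lay in no other gene of GENCODE M21. Of the 26, 2 lie in coding or untranslated sequence of a protein-coding gene. As above, an exon of any annotated transcript was enough, so the 26 are not shown to be exonic in the main transcript of their gene. Snora17 and Snora43, among those 3, lie within the RefSeq span of Snhg7.

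A transcript of each class is shown with the box that defines it. It is that of the row with the most counts in its class, chosen after values were seen. Sequences are GENCODE M21 transcripts on GRCm38, of 133 bases for Snora75 and 99 for Snord16a. The counted rows are shorter, listed at 116 bases for Snora75 and 91 for Snord16a. In RefSeq the Snord16a row lies at chr9:64175432-64175522, so most of the marked box C falls before its start. Capitals mark the ACA box near the end of Snora75, and the TGATG of box C and the CTGA of box D in Snord16a.
Snora75: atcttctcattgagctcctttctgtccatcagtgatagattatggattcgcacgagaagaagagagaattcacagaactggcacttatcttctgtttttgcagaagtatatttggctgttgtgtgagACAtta
Snord16a: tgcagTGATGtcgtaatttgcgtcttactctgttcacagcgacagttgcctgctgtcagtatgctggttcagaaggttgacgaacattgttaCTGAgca
Snora75 is the transcript at chr1:86351169-86351301 on the minus strand, inside Ncl, the gene of the nucleolar protein nucleolin. The Snora75 row had 13 counts in TKO and 6 in WT, while Ncl had 5062 counts in TKO and 5244 in WT (log2 ratio 0.015). The Snord16a transcript is at chr9:64175423-64175521 on the plus strand, inside Rpl4, a gene of the large ribosomal subunit. The Snord16a row had 9 counts in TKO and 3 in WT, while Rpl4 had 10088 counts in TKO and 9363 in WT (log2 ratio 0.17, 0.13 to 0.21). In GENCODE M21, 33 of 40 Snora transcripts (82.5%) have ACA exactly 3 bases before the end. Of 97 Snord transcripts 91 (93.8%) have CTGA in the last 14 bases and 86 (88.7%) have TGATG in the first 20, all searched on the transcript strand.

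Genes around the snoRNA rows had a summed ratio above 0, and the ratio was smaller without Hspa8. On the same strand 37 rows had 32 surrounding genes, all past the minimum, of which 13 encode ribosomal proteins and 24 had over 1000 counts in 1 library. Their median log2 ratio was 0.10, 22 lay above 0 and 0 passed the size rule. Summed they had 168068 counts in TKO and 155428 in WT, a log2 ratio of 0.18 (0.17 to 0.19). Hspa8, the heat shock cognate chaperone gene around Snord14e, had the largest ratio of them, with 26837 counts in TKO and 17228 in WT (log2 ratio 0.70, 0.68 to 0.73). Without Hspa8, left out after its value was seen, the sums were 141231 in TKO and 138200 in WT, a log2 ratio of 0.097 (0.086 to 0.11). Snord14e itself had 4 counts in TKO and 0 in WT. With the counts of both libraries added together, each of the 37 rows came to under 1% of the counts of its surrounding gene. In single libraries the share was higher for a few, such as Snora73b, with 4 counts in WT beside 349 of Rcc1. The difference between the surrounding genes of the 2 kinds of row was not tested. None of the values for surrounding genes was recomputed with the length trend removed.

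**Figure D5:**
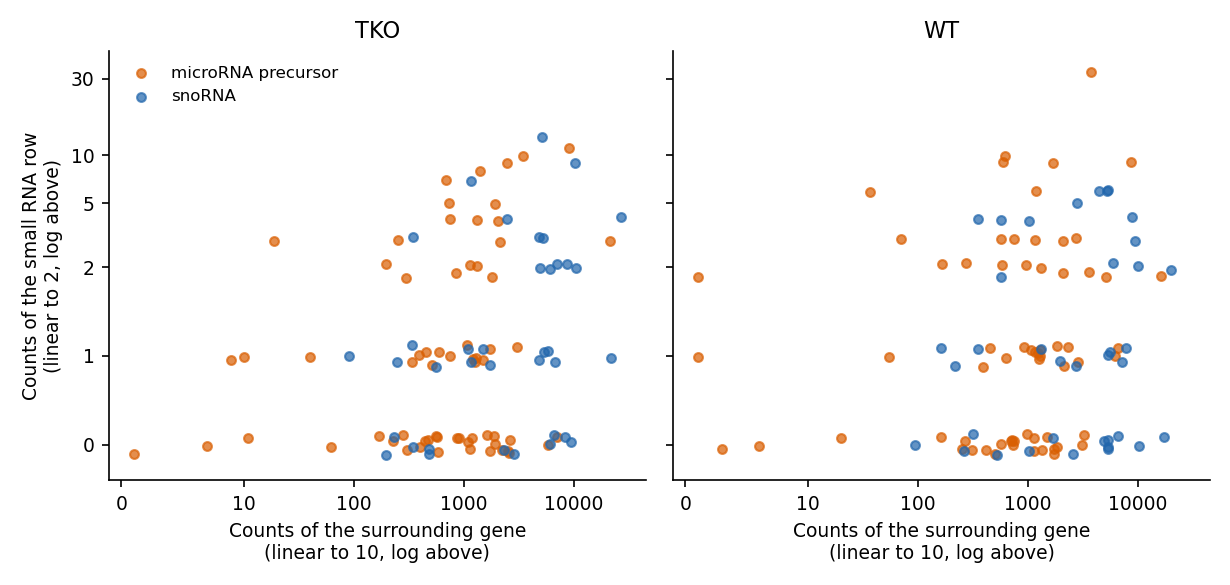
Counts of each small RNA row (y axis, linear to 2 and logarithmic above, with a small jitter) against the counts of the gene around it on the same strand (x axis, linear to 10 and logarithmic above), in TKO (left) and WT (right). Rows stay at or under 33 counts beside surrounding genes with up to 26837, and Mir8114 in WT is the point at 33.

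SnoRNA rows inside snoRNA host genes were near 0 as well. Snora73a and Snora73b lie in Snhg3, and they had 3 and 0 counts in TKO and 1 and 4 in WT. Snord22, in Snhg1, had 3 counts in TKO and 3 in WT. Snora17, in the span of Snhg7, had 1 count in TKO and 9 in WT, while Snhg7 had 37 in TKO and 28 in WT. These rows are named after their values were seen, and the counts are too few to set against those of their hosts.

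Proteins that bind or build snoRNA particles had no gene past the size rule. All 20 measured members of the list of snoRNP proteins and assembly factors passed the minimum and 18 lay above 0. The median log2 ratio was 0.16 (0.057 to 0.29 by order statistics over the genes). Nop10, a subunit of the H/ACA particle, had 283 counts in TKO and 210 in WT, a log2 ratio of 0.50. Rrp9, a protein of the U3 particle, had 107 counts in TKO and 89 in WT (log2 ratio 0.33), and Znhit6, a C/D assembly factor, had 161 in TKO and 134 in WT (0.33). Shq1, an H/ACA assembly factor, had 32 counts in TKO and 43 in WT, a log2 ratio of -0.36. Fbl, fibrillarin, had the most counts of the list with 633 in TKO and 574 in WT, a log2 ratio of 0.21. The list's median was 0.066 with the length trend removed.

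Decay factors of spliced host RNA had medians near 0 and sums slightly below 0. The 20 nonsense-mediated decay factors, all past the minimum, had 0 called in either direction, 11 above 0 and a median log2 ratio of 0.012. Their summed counts were 14985 in TKO and 16958 in WT, a log2 ratio of -0.11 (-0.14 to -0.081). Magohb, an exon junction component, had 42 counts in TKO and 27 in WT (log2 ratio 0.70), and its paralog Magoh had 222 in TKO and 183 in WT (0.34). Smg1, the kinase that acts on Upf1, had 1676 counts in TKO and 2637 in WT (log2 ratio -0.59), and Smg5, which acts after that step, had 513 in TKO and 662 in WT (-0.30). The 18 measured genes of the nuclear exosome and decay list had 0 called, 9 above 0 and a median of 0.0040, with sums of 8652 counts in TKO and 9407 in WT (log2 ratio -0.055, -0.097 to -0.013). Among them Xrn1, a cytoplasmic exonuclease, had a log2 ratio of -0.44, Exosc3, an exosome subunit, 0.41, Zfc3h1 -0.40 and Dis3, an exosome nuclease, -0.33. With the length trend removed the medians were 0.054 for nonsense-mediated decay and -0.032 for the exosome and decay list. The sums of both lists were not recomputed with that trend removed.

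MicroRNA processing and effector genes held the calls among these lists, both of them Argonautes. Of 17 genes past the minimum 2 were lower and 0 higher, where 2.3% of all genes were called lower and 2.43% higher. Of the 17, 4 lay above 0. The median log2 ratio was -0.22 (-0.35 to -0.0049 by order statistics over the genes), or -0.028 with the length trend removed. Ago3 had 92 counts in TKO and 259 in WT (log2 ratio -1.43, -1.79 to -1.08). Ago2, the Argonaute that cuts its targets, had 325 in TKO and 806 in WT (-1.24, -1.44 to -1.06). Ratios of these single genes with the length trend removed are not given here. Tnrc6c, an Argonaute partner, had a log2 ratio of -0.42 and Dgcr8, the partner of Drosha, -0.41. Ran, the export GTPase, had the most counts of the list with 2165 in TKO and 2504 in WT (log2 ratio -0.14).

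Other abundant long noncoding RNA genes went both ways. Of 9 past the minimum 0 were called. Their median log2 ratio was 0.18, with 5 above 0, or 0.032 with the length trend removed. The list also holds snoRNA host genes without a Snhg name, which the name rule left out of the members. Epb41l4aos is such a gene, with 39 counts in TKO and 36 in WT, and the median of 0.18 is its value. Summed over the 15 measured genes the sign was the other way, with 12207 counts in TKO and 13562 in WT (log2 ratio -0.086, -0.12 to -0.051). Neat1, the scaffold of paraspeckles, had 3870 counts in TKO and 2573 in WT (log2 ratio 0.65), while Malat1, its neighbour on the chromosome and a nuclear speckle RNA, had 3189 in TKO and 4145 in WT (-0.31). Ftx, a noncoding gene near Xist, had 57 counts in TKO and 37 in WT (log2 ratio 0.69), Meg3 had 23 in TKO and 16 in WT (0.59), and Xist, which coats and silences an X chromosome, had 2849 in TKO and 4730 in WT (-0.67).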

How the data were processed

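Polyadenylated RNA was sequenced from 1 TKO and 1 WT library, and 1 deposited table gives both. The deposited expected counts are the authors' estimated reads per gene, of which 21.1% in TKO and 21.3% in WT were not whole. FPKM, a unit scaled for length and depth, is named as such per the file headers. The deposited log2 ratio is the authors' log2 of TKO FPKM over WT FPKM, with a p-value whose test no source used here gives. The deposited FDR of the authors was treated as a score, since 713 values exceed 1. HISAT2 2.0.4, Bowtie2 2.2.5, RSEM 1.2.12 and mm10 are listed in the submitters' processing notes, without roles, and the annotation is given in none of the sources used here.

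Expected counts were rounded and scaled with TMM (edgeR 4.0.16, R 4.3.3) over the whole table. The log2 ratio used no pseudocount, a 0 was replaced by 3 counts, and intervals of ratios were exact conditional binomial (Clopper-Pearson) 95% intervals. Intervals of medians were taken from order statistics over the genes. No test was run, as each genotype had 1 library. Positions came from RefSeq by Entrez identifier (161 of 162 members) and from GENCODE M21, both on GRCm38, and sequences from RefSeq tables (88 of 96 precursor rows) and GENCODE. Alternatives were library totals, DESeq2 1.42.0 size factors, log2 of FPKM plus 1, other count minimums, thresholds and intervals, and removal of the lowess length trend (span 0.3). The rule for naming took members with at least 20 counts, Mir host genes, rows of the targeted clusters, up to 4 genes with the largest ratio and the most abundant in each list, and genes around named members. Members, lists and rules were chosen with earlier results of these data known.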

Additional observations from a re-analysis of the deposited data

How the results depend on the processing

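The 121 values of single members recomputed under the alternatives kept their call, and 5 changed sign without a call: Snhg8 under library totals (-0.018), DESeq2 size factors (-0.0011), log2 of FPKM plus 1 (-0.017) and removal of the length trend (-0.20), and Snhg1 under that removal (-0.090). Members called higher and lower numbered 2 and 2 of 65 with no count minimum (338 and 322 of all 14708 genes), which kept genes above 0 in both libraries and so left out Mir8114, and 0 and 0 of 2 with a minimum of 100 counts (164 and 95 of 9257), since fewer genes were then tested. The 1.5-fold and 4-fold thresholds, the 99% interval, the other scalings and FPKM each left 1 higher and 1 lower of 15, while all genes called higher and lower, of 11525, numbered 591 and 638 at 1.5-fold, 76 and 26 at 4-fold, 257 and 222 with the 99% interval and 154 and 67 with FPKM. The 99% interval of Gas5 (-0.021 to 0.70) includes 0. Removing the length trend gave summed log2 ratios of 0.12 for the snoRNA host genes and -0.65 (-0.94 to -0.36) for the precursor rows. The trend was 0.48 at the length of Mir8114, and the other precursor rows, under the count minimum, were not in the fit. The cause of the trend was not tested. Sums without Gas5 (0.27) and without Mir8114 (0.066) were added after seeing the data, as was the sum of genes around snoRNA rows without Hspa8 (0.097, against 0.18 with it). List medians stayed within their intervals, though 3 lists near 0 or of few genes changed sign: nonsense-mediated decay (0.012, or -0.024 with library totals), exosome and decay (0.0040, or -0.032 with library totals) and other long noncoding RNA genes (0.18, or -0.034 with no minimum and -0.13 with a minimum of 100 counts). Library totals of 10656455 counts in TKO and 10877915 in WT left 147 members under the count minimum, where no difference of moderate size was detectable. No paired analysis was possible because each genotype had 1 library and no test was run.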
